A study of Anopheles gambiae with 8 samples.

Results

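Antimicrobial peptides are small secreted proteins that kill microbes, and in mosquitoes they are made by the fat body, by hemocytes and by epithelia. Their genes are switched on by the Toll and IMD signaling pathways, which end in transcription factors of the NF-kappaB family. In *Drosophila* the steroid hormone 20-hydroxyecdysone (20E) also takes part in the control of some of these peptides. Mosquitoes produce 20E after a blood meal. The 6 peptide genes described here were chosen by their gene identifiers and are 6 of the 13763 genes in the count table of *Anopheles gambiae*. They are the cecropins *CEC1* (AGAP000693), *CEC2* (AGAP000692) and *CEC3* (AGAP000694), the defensin *DEF1* (AGAP011294), the gambicin *GAM1* (AGAP008645) and the attacin *ATT1* (AGAP005620). Cecropins are linear helical peptides that damage bacterial membranes. Defensins are compact peptides held together by disulfide bridges, gambicin is a cysteine-rich peptide of mosquitoes, and attacins are larger glycine-rich proteins that act mainly on Gram-negative bacteria. *CEC1* and *CEC3* had been listed by the study as changed genes in these same libraries, as had *HR4*, *LYSC1* and *PPO3*, which are named further below. The direction of these genes is therefore not independent evidence.

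RNA was measured in 4 libraries of 20E-treated cells and in 4 libraries of control cells given the solvent, ethyl alcohol (EtOH). All libraries came from Sua 4.0, an established *An. gambiae* cell line, 24 h after treatment, with 20E at 500 ng/ml (1 μM). The labels give the ethanol as 10% and the methods as undiluted, in a comparable volume for both groups. A single cell line stands for no tissue of the mosquito, and the cells were given no microbe, so far as the labels say.

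The 20E libraries held from 6865599 to 14878014 counts and the EtOH libraries from 7761718 to 13566683. Levels are in CPM, the usual library-size scaling of counts, with the TMM factors of edgeR. Testing used the quasi-likelihood method in edgeR, and a gene was called when its p, adjusted by the Benjamini-Hochberg method, did not exceed 0.1, the limit of the study. Libraries with the same number from 1 to 4 form a pair, so each test is also given with the pair as a block. The hormone treatment itself was visible in each pair. *HR4* (AGAP004693), a nuclear receptor gene of the early 20E response, had 145, 106, 97.2 and 148 CPM after 20E in pairs 1, 2, 3 and 4, against 0.285, 0.280, 0.0763 and 0.271 CPM after EtOH.

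Compared within pairs, the genes that were higher after 20E included peptides from outside the X-linked cecropin cluster, and 1 gene inside the cluster was not among them. With the replicate block edgeR called 4 of the 5 peptide genes that passed the expression filter, all higher after 20E (*CEC1*, *CEC3*, *DEF1* and *GAM1*), where 8.34% of all tested genes were called higher. DESeq2 with the block called 3 (*CEC1*, *CEC3* and *GAM1*), where 6.58% were called higher. *ATT1* was not called, and *CEC2* had too few counts for the filter and was not called in the fits without one. Without the block edgeR called 0 of the 5 by the same method, with 0.513% of all tested genes called higher and 0.281% lower. In that fit 3 of the 5 (*CEC1*, *CEC3* and *DEF1*) had an unadjusted p under 0.05, which held for 557 of the 8180 tested genes. Of the other tools without the block, DESeq2 and the exact test in edgeR each called 2 (*CEC1* and *CEC3*), with 1.11% and 0.941% of all tested genes called higher, whereas limma-voom called 0, with 0.465% called higher. The median log2 fold change of the 5 genes was 1.80, and that of all tested genes was 0.01. In RNA from whole cultures, more cells that make a peptide and more RNA in each cell cannot be told apart.

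*CEC1* lies on the minus strand of X from 12440533 to 12441132 of AgamP4. Its level was 139, 59.3, 273 and 463 CPM after 20E in pairs 1, 2, 3 and 4, against 22.2, 45.2, 3.28 and 3.98 CPM after EtOH. The lowest 20E library was above the highest EtOH library, which held for 2.18% of all tested genes, and the groups came closest in replicate 2, the lowest of the 20E libraries and the highest of the EtOH libraries. It averaged 234 ± 177 CPM after 20E and 18.7 ± 19.8 CPM after EtOH (SD, n = 4 each), a 12.5-fold difference of means. The log2 fold change was 3.65 (SE 0.97, 95% confidence interval 1.46 to 5.84, adjusted p = 0.254) without the block and 3.85 (SE 0.99, adjusted p = 0.0336) with it, both by quasi-likelihood in edgeR, and over all alternatives the adjusted p ran from 4.64e-04 to 0.609. With the block and both libraries of replicate 3 left out, the adjusted p was 0.130 and the log2 fold change 2.94, so the gene was not called there.

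*CEC3*, on the plus strand of X from 12442174 to 12442986, was also higher after 20E in each pair, at a lower level than *CEC1*. The level was 14.95, 21.8, 59.0 and 89.1 CPM after 20E in pairs 1, 2, 3 and 4, against 3.28, 13.5, 0.840 and 1.09 CPM after EtOH. The groups did not overlap, with 14.95 CPM as the lowest 20E value and 13.5 CPM, in replicate 2, as the highest EtOH value. Such a gap, with 20E higher, held for 2.18% of all tested genes. Group means were 46.2 ± 34.5 CPM after 20E and 4.69 ± 6.01 CPM after EtOH (SD, n = 4 each). The log2 fold change was 3.30 (SE 0.95, adjusted p = 0.343) without the block and 3.45 (SE 0.82, adjusted p = 0.0242) with it, by quasi-likelihood in edgeR, and the adjusted p ran from 2.28e-04 to 0.769 over all alternatives. When EtOH replicate 2 was left out the gene was also called without the block, at a log2 fold change of 4.81 and an adjusted p of 0.0887. With both libraries of replicate 2 left out and no block, it was 5.04 at an adjusted p of 0.192, a setting chosen after the values had been seen.

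*CEC2*, on the minus strand of X from 12437473 to 12438077, lies 2455 bp from *CEC1* and gave a different picture. After 20E it gave 2, 58, 17 and 2 counts in pairs 1, 2, 3 and 4, against 5, 52, 6 and 0 counts after EtOH. Pair 2 had the most counts on both sides, and 20E and EtOH libraries were intermingled. In levels this was 4.01 CPM in 20E replicate 2 and 4.86 CPM in EtOH replicate 2, with the other 6 libraries at 1.02 CPM or less. EtOH replicate 4, with 0 counts, could have held up to 3 counts, or 0.271 CPM. Fitted with no expression filter, *CEC2* had a log2 fold change of -0.09 (95% confidence interval -2.82 to 2.63, adjusted p = 0.997, edgeR) without the block and 0.16 (95% confidence interval -0.92 to 1.24, adjusted p = 0.910, edgeR) with it. Both intervals include 0, the one without the block is the wider, and the difference in response between *CEC2* and the other cecropins was not tested.

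**Figure D1:**
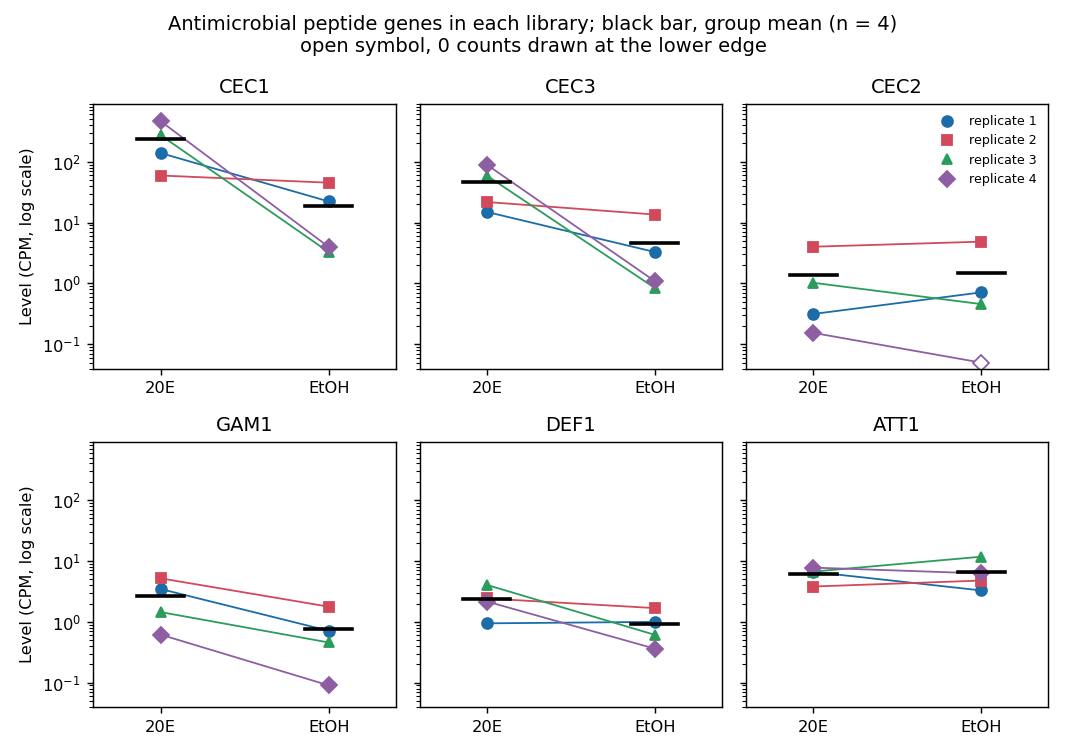
Level of each peptide gene in every library (CPM, log axis), 20E left of EtOH, with lines joining libraries of the same replicate number and black bars at the group means (n = 4). *CEC1* and *CEC3* had no overlap between groups, as had 2.18% of all tested genes with 20E higher. *CEC2* was highest in replicate 2 of both groups (4.01 CPM after 20E and 4.86 CPM after EtOH), and *ATT1* overlapped throughout.

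*GAM1*, on the plus strand of 3R from 13896514 to 13897371, was higher after 20E in 4 of 4 pairs, although its groups overlapped. Its libraries showed 3.46, 5.19, 1.45 and 0.616 CPM after 20E in pairs 1, 2, 3 and 4, against 0.713, 1.78, 0.458 and 0.0905 CPM after EtOH. Replicate 2 was the highest and replicate 4 the lowest in both groups, and the 20E value of replicate 4 lay below the EtOH values of replicates 1 and 2. The log2 fold change was 1.80 (SE 0.86, adjusted p = 0.813) without the block and 1.83 (SE 0.37, adjusted p = 0.0106) with it in edgeR, and its adjusted p was 0.00593 at the lowest over the alternatives and 0.9996 at the highest. Of the 5 tested genes, *GAM1* had the narrowest range of pair ratios, with a log2 ratio of 2.28, 1.55, 1.66 and 2.77 in pairs 1, 2, 3 and 4. With the block *GAM1* was called whichever pair was left out, as was *CEC3*. The *GAM1* ratios rest on 5, 19, 6 and 1 EtOH counts, so the true range could be wider. Their 95% counting intervals ran from 0.84 to 4.04 in pair 1, from 0.81 to 2.36 in pair 2 and from 0.33 to 3.24 in pair 3. Pair 4 rests on 8 counts after 20E and 1 after EtOH, so its ratio, 6.81-fold, has a 95% counting interval from 0.913 to 302-fold (exact binomial).

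*DEF1*, on the plus strand of 3L from 20627828 to 20628236, was called under fewer settings than the other 3 called genes. Levels were 0.944, 2.42, 4.04 and 2.16 CPM after 20E in pairs 1, 2, 3 and 4, against 0.998, 1.68, 0.611 and 0.362 CPM after EtOH. Replicate 1 showed no increase, on 6 counts after 20E and 7 after EtOH, and the highest EtOH library lay above the lowest 20E library. Fitted values were 1.41 on the log2 scale (SE 0.59, adjusted p = 0.694) without the block and 1.47 (SE 0.49, adjusted p = 0.0876) with it in edgeR, and over the alternatives its adjusted p was between 0.0525 and 0.9996. With the block the gene was not called without pair 3 (log2 fold change 0.97, adjusted p = 0.375) or without pair 4 (1.19, adjusted p = 0.273), and DESeq2 with the block, added after the values had been seen, gave an adjusted p of 0.130.

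*ATT1*, on the plus strand of 2L from 17932982 to 17933710, was not called in any fit. The libraries had 6.61, 3.80, 6.69 and 7.78 CPM after 20E in pairs 1, 2, 3 and 4, against 3.28, 4.77, 11.8 and 6.24 CPM after EtOH. The highest and the lowest of the 8 values were both EtOH libraries. The log2 fold change was -0.07 (SE 0.42, 95% confidence interval -1.02 to 0.87, adjusted p = 0.999) without the block and -0.03 (SE 0.28, 95% confidence interval -0.67 to 0.60, adjusted p = 0.955) with it in edgeR. Its sign turned to 0.37 without EtOH replicate 3 and to 0.10 without 20E replicate 2. Of the 6 genes it is the only 1 whose span overlaps another gene, by 12 bp with AGAP005621 on the opposite strand. That gene had from 81.3 to 115 CPM after 20E and from 89.5 to 136 CPM after EtOH, and the strand setting of the counting is not given in the sources used here.

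Because the pairs differed from each other, the ratio within each pair was read for each gene. The *CEC1* level was 6.24-fold, 1.31-fold, 83.2-fold and 116-fold higher after 20E in pairs 1, 2, 3 and 4. The *CEC3* level was 4.56-fold, 1.61-fold, 70.2-fold and 82.1-fold higher in the same pairs. Both genes thus kept the same order of pairs, with pairs 3 and 4 far above pair 1 and pair 2 lowest. The counting intervals in pair 2, from 1.17 to 1.47-fold for *CEC1* and from 1.32 to 1.97-fold for *CEC3*, lie above 1, but they cover counting error only. *HR4* in pair 2 was 8.56 higher on the log2 scale after 20E, against 8.98, 10.32 and 9.09 in pairs 1, 3 and 4. These *HR4* ratios rest on 2, 3, 1 and 3 counts after EtOH in pairs 1, 2, 3 and 4. The counting interval in pair 2, from 7.01 to 10.84, includes the ratios of the other pairs. *CEC1*, *CEC3* and *GAM1* were higher after 20E in 4 of 4 pairs, which held for 17.0% of all tested genes, and *DEF1* was higher in 3 pairs and *ATT1* in 2. An exact sign-flip test over 4 pairs cannot give a p below 0.125.

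**Figure D2:**
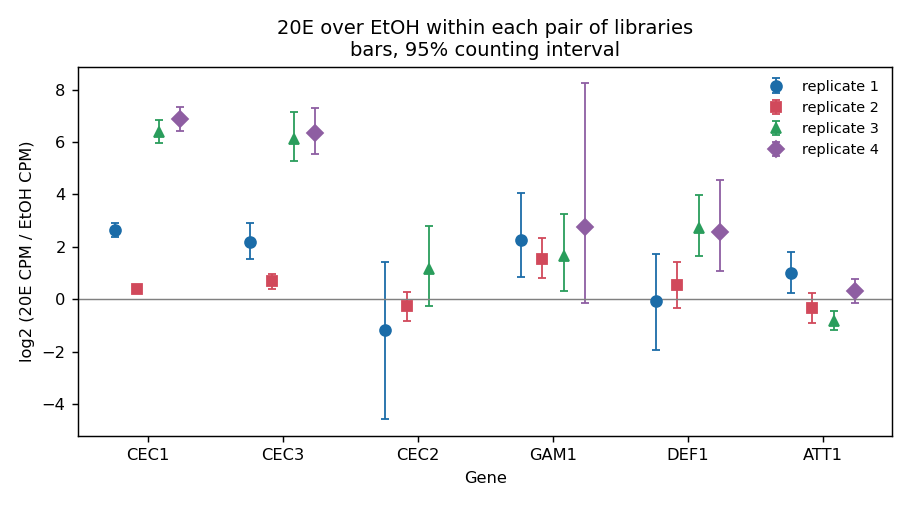
Log2 ratio of the 20E to the EtOH level within each pair of libraries, for the 6 peptide genes, with bars for the 95% counting interval (exact binomial, counting error only). The *CEC1* ratio runs from 0.39 in pair 2 to 6.86 in pair 4, whereas *GAM1* stays between 1.55 and 2.77. Pair 4 of *CEC2* is not drawn, since its EtOH library had 0 counts.

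The ratios of *CEC1* and *CEC3* were smallest in pair 2, in which the EtOH cells had the most RNA of both genes, whereas that of *CEC2* was smallest in pair 1 (-1.18 on the log2 scale). EtOH replicate 2 had the highest EtOH level of 5 of the 6 genes (*CEC1*, *CEC2*, *CEC3*, *DEF1* and *GAM1*), which held for 27.5% of all tested genes, and *ATT1* was highest in EtOH replicate 3. In EtOH replicates 3 and 4, where *CEC1* was at 3.28 and 3.98 CPM, its ratio was largest. A ratio and its own denominator are not separate measurements, so no correlation was computed. After 20E the order of the libraries differed between genes. *CEC1* was highest in 20E replicate 4 (463 CPM) and lowest in 20E replicate 2 (59.3 CPM). *GAM1* had the reverse order, highest in 20E replicate 2 (5.19 CPM) and lowest in 20E replicate 4 (0.616 CPM).

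Set against the length of each gene, *CEC1* was the most abundant of the 6 after 20E. The lengths are whole gene spans, introns included. The level per kilobase averaged 389 CPM per kb for *CEC1* after 20E, and 31.1 CPM per kb after EtOH. For *CEC3* it was 56.8 CPM per kb after 20E and 5.77 CPM per kb after EtOH. *CEC1* was above *CEC3* in each of the 8 libraries, although the ranges of the 20E libraries, from 98.9 to 772 CPM per kb for *CEC1* and from 18.4 to 110 CPM per kb for *CEC3*, overlapped. *ATT1* followed at 8.54 CPM per kb after 20E and 8.93 after EtOH, *DEF1* at 5.84 after 20E and 2.23 after EtOH, *GAM1* at 3.12 after 20E and 0.885 after EtOH, and *CEC2* at 2.28 after 20E and 2.49 after EtOH. After 20E the highest *ATT1* library (10.7 CPM per kb) lay below the lowest *CEC3* library, while *ATT1*, *DEF1*, *GAM1* and *CEC2* overlapped each other. After EtOH the order depended on the replicate. *ATT1* was above *CEC1* in EtOH replicate 3 (16.1 against 5.47 CPM per kb) and in EtOH replicate 4 (8.57 against 6.64 CPM per kb), and below it in EtOH replicates 1 and 2. *CEC1* made up 84.1%, 61.5%, 79.1% and 82.3% of the counts of the 6 genes in 20E replicates 1, 2, 3 and 4, against 71.2%, 62.9%, 18.9% and 33.8% in the EtOH replicates.

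Whether a gene responded differently from another was tested on the ratio of their counts within a library, which needs no scaling between libraries. The ratio was compared between 4 20E and 4 EtOH libraries with an exact permutation test (two-sided), whose smallest possible p is 0.0286, for the 10 gene pairs among the 5 genes that passed the filter. The response of *CEC1* exceeded that of *ATT1* by 4.02 on the log2 scale. The count of *CEC1* was 20.8, 15.5, 40.6 and 59.3 times that of *ATT1* in 20E replicates 1, 2, 3 and 4, against 6.66, 9.41, 0.282 and 0.640 times in the EtOH replicates. The groups did not overlap (exact permutation p = 0.0286, 0.143 adjusted over the 10 gene pairs). The response of *CEC3* exceeded that of *DEF1* by 2.42 on the log2 scale. The count of *CEC3* was 14.7, 8.89, 14.5 and 40.6 times that of *DEF1* in 20E replicates 1, 2, 3 and 4, against 3.13, 7.87, 1.35 and 2.78 times in the EtOH replicates, again without overlap (exact permutation p = 0.0286, 0.143 adjusted over the 10 gene pairs). The differences between *CEC1* and *DEF1* (2.68) and between *CEC3* and *ATT1* (3.76) each had an exact permutation p of 0.0571, 0.143 after adjustment. No gene pair passed an adjusted p of 0.1. As the unadjusted p cannot go below 0.0286, several of the 10 gene pairs would have to sit at that floor before any could pass. A difference in a lone gene pair could not have passed, however large.

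For the remaining gene pairs, as for those above, this test called no difference in response after adjustment, which does not show equal responses. The permutation test does not use the pairing of the libraries. The exact sign-flip test, which does, cannot go below 0.125. It gave 0.125 for *CEC1* against *ATT1*, *CEC3* against *DEF1*, *CEC3* against *ATT1* and *GAM1* against *ATT1*, and from 0.25 to 0.75 for the other 6 gene pairs. *CEC1* and *CEC3* differed by 0.25 on the log2 scale (exact permutation p = 0.543), with the 4 pairs of libraries between -0.29 and 0.55, which does not show that they act alike. The count of *CEC1* was 9.24, 2.72, 4.63 and 5.20 times that of *CEC3* in 20E replicates 1, 2, 3 and 4, against 6.66, 3.33, 3.78 and 3.56 times in the EtOH replicates. This ratio was highest in replicate 1 and lowest in replicate 2 of both groups. The response of *CEC1* was 2.17 above that of *GAM1*, between -1.13 in pair 2 and 4.79 in pair 3 (exact permutation p = 0.20), and that of *CEC3* was 1.92 above that of *GAM1*, between -0.84 and 4.50 (exact permutation p = 0.286). *GAM1* against *ATT1* differed by 1.84, between 1.18 and 2.38, positive in 4 of 4 pairs (exact permutation p = 0.20). *DEF1* against *ATT1* differed by 1.34, between -1.06 and 3.46 (exact permutation p = 0.229), and *DEF1* against *GAM1* by -0.50, between -2.24 and 1.08 (exact permutation p = 0.629). After adjustment over the 10 gene pairs these permutation p-values lay between 0.327 and 0.629. A smaller response of *GAM1* or *DEF1* than of *CEC1* was not shown by either test with 4 libraries a group.

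**Figure D3:**
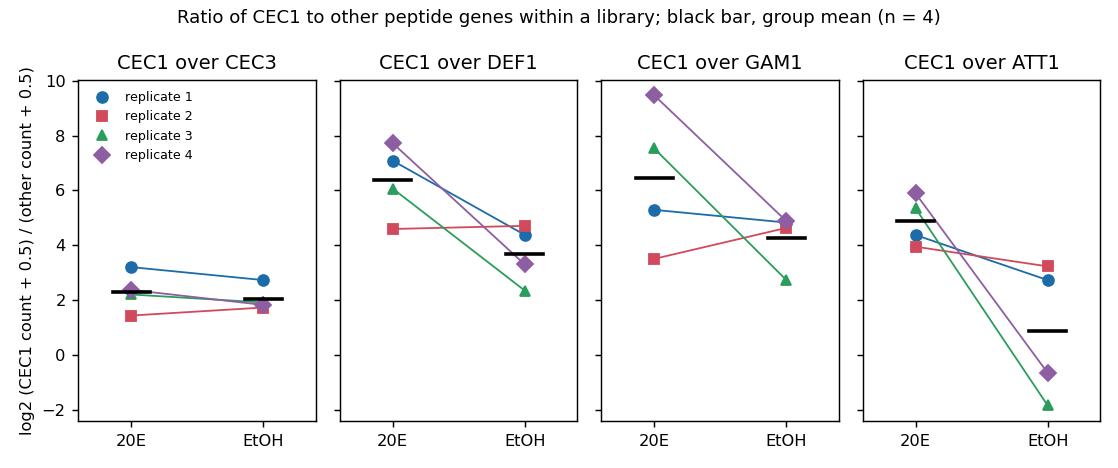
Log2 ratio of the *CEC1* count to that of another peptide gene within each library (0.5 added to each count), 20E left of EtOH, with lines joining libraries of the same replicate number and black bars at the group means (n = 4). The ratio to *CEC3* differed by 0.25 between the groups, that to *ATT1* by 4.02, and only the ratio to *ATT1* shows no overlap between the groups.

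The 3 cecropin genes lie within 5514 bp of X, and their neighbours were read in the same way, 3 on each side. Without the block edgeR called 0 of the 5 neighbours that passed the filter (2 had an unadjusted p under 0.05, and DESeq2, the exact test in edgeR and limma-voom called 0). At an unadjusted p under 0.05 there were 557 of the 8180 tested genes. In edgeR without the block 0.513% of all tested genes were called higher and 0.281% lower. With the block 2 of the neighbours were called higher and 1 lower, where 8.34% of all tested genes were called higher and 9.11% lower. The gene next to *CEC3*, AGAP000695 (X from 12443351 to 12444668, without a name in the sources), begins 364 bp past its end on the opposite strand. It had 5.19, 3.25, 10.4 and 13.5 CPM after 20E in pairs 1, 2, 3 and 4, against 2.99, 2.06, 0 and 0.271 CPM after EtOH. The groups did not overlap, as in 2.18% of all tested genes with 20E higher, and pairs 3 and 4 stood furthest apart, as for *CEC1*. The 0 in EtOH replicate 3 allows up to 3 counts, or 0.229 CPM. Its log2 fold change was 2.66 (adjusted p = 0.606) without the block and 2.74 (adjusted p = 0.0618) with it in edgeR. AGAP013084, 28.5 kb from *CEC1* and also unnamed, averaged 2.69 ± 1.51 CPM after 20E and 0.832 ± 0.749 CPM after EtOH (SD, n = 4 each). It was the other neighbour called higher with the block (log2 fold change 1.72, adjusted p = 0.0546, edgeR), and its adjusted p without the block was 0.735 in edgeR.

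On the other side of the cluster none of the 3 neighbours was called higher with the block. AGAP000691 (X from 12435496 to 12436530), which lies 942 bp from *CEC2*, had 5.67, 29.8, 6.93 and 2.93 CPM after 20E in pairs 1, 2, 3 and 4, against 0.570, 37.3, 0.611 and 0.362 CPM after EtOH. Replicate 2 was far above the rest in both groups, as for *CEC2*. In pairs 1, 3 and 4 its log2 ratio was 3.31, 3.51 and 3.02, and in pair 2 it was -0.32. Pair 2 thus had its lowest ratio, as for *CEC1* and *CEC3*. The log2 fold change was 1.48 with the block (adjusted p = 0.140, edgeR), so the gene was not called. AGAP000690, the furthest of the 3 on this side, was lower after 20E in 4 of 4 pairs, with 21.4 ± 7.36 CPM after 20E and 38.2 ± 9.17 CPM after EtOH (SD, n = 4 each). Its log2 fold change was -0.83 (adjusted p = 0.516) without the block and -0.86 (adjusted p = 0.00953) with it in edgeR. AGAP013028, which lies between these 2 genes, had a log2 fold change of 0.15 with the block (adjusted p = 0.637, edgeR). AGAP013437 had too few counts for the filter.

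**Figure D4:**
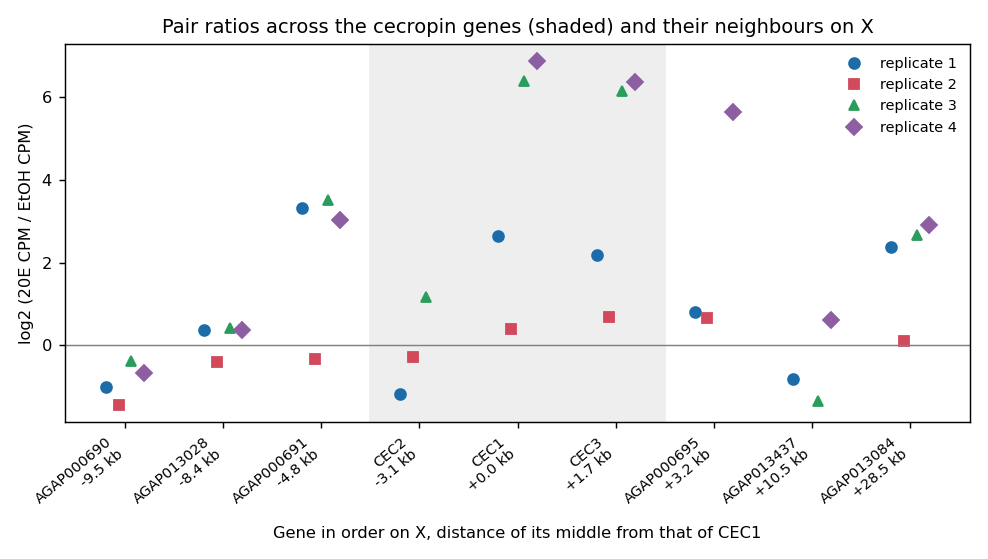
Log2 ratio of the 20E to the EtOH level in each pair of libraries for the cecropin genes (shaded) and the 3 nearest genes on each side, in order on X, with the distance of each gene's middle from that of *CEC1* in kb. Ratios over 6 were found for *CEC1* and *CEC3* in pairs 3 and 4, and AGAP000695 reached 5.63 in pair 4. No drawn ratio was over 1.16 for *CEC2*, AGAP013028 and AGAP013437, and AGAP000690 was below 0 in each pair. Pairs with 0 counts in a library are not drawn (*CEC2* pair 4, AGAP000695 pair 3, AGAP013437 pair 2).

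The genes whose levels over the 8 libraries were most like those of each peptide gene were found among 8175 other tested genes by Pearson's r of log2 CPM. The 8 libraries are 4 pairs and share the treatment, so r describes likeness and was not tested. For *CEC1* they were *LYSC1* (AGAP007347, r = 0.971), a C-type lysozyme, an enzyme that degrades bacterial cell walls, and AGAP000695 (r = 0.964). For *CEC3* they were AGAP008165 (r = 0.953), described as a cellular retinaldehyde binding protein, and again *LYSC1* (r = 0.949). *LYSC1* had 49.9, 33.8, 53.4 and 124 CPM after 20E in pairs 1, 2, 3 and 4, against 18.0, 25.0, 6.11 and 11.9 CPM after EtOH. Its fitted log2 change was 2.10 without the block (adjusted p = 0.199, not called) and 2.08 with it (adjusted p = 0.0118), both in edgeR. Its pair ratios of 1.47, 0.43, 3.13 and 3.38 on the log2 scale had the order of those of *CEC1*, at smaller size. As *LYSC1* was picked here by its likeness over the same libraries, this order is not separate evidence. The genes most like *DEF1* were AGAP011768 (r = 0.957) and AGAP008852 (r = 0.926), those most like *GAM1* were AGAP000614 (r = 0.960) and AGAP000720 (r = 0.955), and those most like *ATT1* were AGAP009516 (r = 0.912) and AGAP007026 (r = 0.904). Only the 2 closest genes of each peptide gene were kept. None of them was shared by a cecropin and another peptide, but lists this short say little about shared profiles.

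Further identifiers were read as lists only, since the sources used here pair none of them with a name. They were noted down from general knowledge and not checked against an annotation. Of 5 identifiers taken as further peptide genes, 1 passed the filter, AGAP004632, whose mean was 2.32 ± 0.824 CPM after 20E, with 2.35 ± 0.716 CPM after EtOH (SD, n = 4 each). It was not called (log2 fold change -0.01, adjusted p = 0.999 without the block, edgeR). The other 4 had at most 7 counts over all 8 libraries, and 1 of them had 0. The Toll and IMD pathways, which act on these peptides, were represented by 11 identifiers, of which 1 had 0 counts. Of the 10 that passed the filter, 0 were called without the block by either edgeR test, by DESeq2 or by limma-voom. Quasi-likelihood in edgeR called 0.513% of all tested genes higher and 0.281% lower there, so 0 of 10 is near that share. An unadjusted p under 0.05 was found for 1 of the 10, and for 557 of the 8180 tested genes. With the block 0 were called higher and 3 lower, where 8.34% of all tested genes were called higher and 9.11% lower. Their log2 fold changes without the block ran from -0.51 to 0.22, with a median of -0.13.

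A list for hemocytes and fat body, the cell types that make these peptides in the animal, held 6 identifiers, all with counts, of which 5 passed the filter and only *PPO3* and *PPO8* have names in the sources. Without the block edgeR called 1 higher (*PPO8*), where 0.513% of all tested genes were called higher. With the block 3 were called higher and 1 lower, where 8.34% were called higher and 9.11% lower. The summed level of the list ran from 2855 to 5350 CPM after 20E and from 1292 to 3162 CPM after EtOH. Most of that sum came from 1 gene, AGAP001826, with 2110 to 4684 CPM after 20E and 856 to 2335 CPM after EtOH. *PPO3*, a prophenoloxidase gene of the melanization response, had 94.6, 146, 298 and 502 CPM after 20E in pairs 1, 2, 3 and 4, against 67.9, 86.0, 106 and 64.9 CPM after EtOH, with its largest ratios in pairs 3 and 4. Its paralog *PPO8* averaged 23.7 ± 23.9 CPM after 20E and 0.884 ± 0.302 CPM after EtOH (SD, n = 4 each). The members did not move together. AGAP004203 was lower after 20E in 4 of 4 pairs, with log2 ratios between -0.75 and -0.10 (adjusted p = 0.0385 with the block and 0.999 without it, edgeR). AGAP004981 had a log2 ratio of -0.82 in pair 1 and of 0.95, 1.38 and 2.20 in pairs 2, 3 and 4, and was not called (adjusted p = 0.142 with the block, edgeR). AGAP006258, below the filter, had at most 0.385 CPM after 20E and 0.748 CPM after EtOH. The list's part in the peptide result was not tested.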

How the data were processed

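The study treated Sua 4.0 cells with 20E or EtOH in 4 experiments. The authors mapped read pairs to AgamP4 with STAR 2.5.2b and counted fragments per gene with featureCounts. Multimapped fragments were excluded, so reads shared by related cecropins would be missing. The deposited values are whole-number counts without normalization, for 13763 genes, and the strand setting is not given in the sources used here. The deposited lengths (other, in bases) equal the whole gene span.

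Counts were tested with edgeR 4.0.16 (R 4.3.3, quasi-likelihood, TMM, filterByExpr with a minimum count of 10 and a minimum total of 15), which left 8180 genes, with all 8 libraries and treatment as the only term. Each SE is the size of the log2 fold change divided by the root of the test's F value. *CEC2*, below the filter, was read from the fit without a filter. Differences between genes were tested with scipy 1.17.1 after adding 0.5 counts. Alternatives were DESeq2 1.42.0, limma-voom (limma 3.58.1), edgeR's exact and likelihood ratio tests, RLE factors, 2 other filters, the replicate block, other pseudocounts and leaving out libraries. The fits were also run on simulated counts with the same spread set for all genes. That run is not used as evidence for genes that vary between pairs as much as *CEC1*. Same-numbered libraries deviated together, with r of 0.835, 0.728, 0.804 and 0.646 over 8180 genes and at most 0.0854 between other numbers, and the series text speaks of 4 independent experiments, so the numbers pair the libraries. Libraries of a group differed by at least 65.3 in chi-square per degree of freedom, so none was taken for a copy.

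Depth ran from 6865599 to 14878014 counts. Intervals and limits from 0 counts (3 counts) cover counting error only, as the sources name no molecular identifiers. The members and lists were chosen with earlier results of these data known. The text names the 6 peptide genes, the 3 nearest genes on each side of the cecropins, the 2 genes closest in profile to each tested member, *LYSC1* and the hormone receptor *HR4*, and gives the lists by counts. AGAP004632 and the hemocyte and fat body genes (*PPO3*, *PPO8* and 4 others) fall outside this rule and were named after their values were seen.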

Additional observations from a re-analysis of the deposited data

Results flagged for a closer look

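In each group of 4 libraries the highest or lowest value was set against the rest for the members, their X neighbours and the genes of like profile, 40 groups in all, and chance alone marks about 1 group in 20. Among EtOH libraries, replicate 2 stood apart for *CEC2* at 4.86 CPM (the others were from 0 to 0.713 CPM) and for AGAP000691 at 37.3 CPM (the others were from 0.362 to 0.611 CPM). AGAP000691 also stood apart in 20E replicate 2, at 29.8 CPM (the others were from 2.93 to 6.93 CPM). EtOH replicate 1 stood apart for AGAP013437 at 8.84 CPM (the others were from 0 to 0.458 CPM), and EtOH replicate 2 for AGAP008852 at 4.39 CPM (the others were from 3.13 to 3.17 CPM).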

How the results depend on the processing

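Without the block, 65 genes were called over all genes, 195 by DESeq2, 141 by edgeR's exact test, 147 by its likelihood ratio test and 32 at an adjusted p of at most 0.05. With the replicate block the number was 1427, and 1540 with no filter. DESeq2 with the block, added after the data had been seen, called 1290. The log2 fold change of *CEC1* was 3.64 by DESeq2, by the exact test and by the likelihood ratio test, 3.85 with the block, with and without the filter, and 4.19 by DESeq2 with the block. For *CEC3* these values were 3.29, 3.30 and 3.30, then 3.45, 3.45 and 3.88 with the block. *DEF1* had 1.47 with the block and either filter, and *GAM1* 1.83 with the block, 1.84 with the block and no filter and 1.91 by DESeq2 with the block. All of these were called. The DESeq2, exact and likelihood ratio values of *CEC1* and *CEC3* listed first came from fits without the block. In edgeR's quasi-likelihood fit without the block none of these genes was called.

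With single libraries left out and no block, 16 to 64 genes were called, and with a pair left out of the blocked fit 846 to 1277. Over both kinds the log2 fold change ran from 2.81 to 5.15 for *CEC1*, from 2.58 to 5.05 for *CEC3*, from 0.97 to 1.95 for *DEF1*, from 1.23 to 2.69 for *GAM1* and from -0.29 to 0.37 for *ATT1*. The sign of *ATT1* turned without 20E replicate 2 (0.10), without EtOH replicate 3 (0.37), and in the blocked fit without pair 2 (0.05) or pair 3 (0.29). That of *CEC2* turned with the block and no filter (0.16) and by DESeq2 with the block (0.26). Neither gene was called in any fit, and the cause was not tested. Leaving out both libraries of replicate 2 with no block, also added afterwards, left 17 calls. The block changed no other call of a peptide gene. None of the 10 differences in response passed an adjusted p of 0.1, which a lone gene pair at the smallest p could not reach. With the pairing used (exact sign-flip test) the unadjusted p of *CEC1* against *ATT1* and of *CEC3* against *DEF1* was 0.125, the smallest it can give, against 0.0286 in the exact permutation test without pairing. With libraries left out only the values of these differences were computed, with no p. The low counts of *CEC2*, *DEF1* and *GAM1* limit the precision of their ratios.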
